A study of Mus musculus with 15 samples.

Results

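Promoter-capture Hi-C ligates pieces of DNA that neighbour each other in the nucleus and pulls out, by baits, the ligations that include a chosen promoter. The contacts described here are the HindIII fragments that had an interaction score in Late library 3 or 4 and in Reactivated library 3 or 4, and none in the other 11 libraries. They were chosen by the deposited scores themselves, and 637 of 33334 distinct fragments (1.91%) met the rule. A fragment is listed once for each promoter it was scored with, so the 637 fragments made 822 of 36353 listings (2.26%), and 722 of 4429 promoters (16.3%) had at least 1. They are called the shared fragments below. Because the rule used the score of every library, their presence and their scores are a description with no test.

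The nuclei came from the hippocampus of mice labelled +/+ of the cross ArcCreERT2 x R26R-STOP-floxed-eYFP, in which 4-hydroxytamoxifen lets the Cre made from the Arc promoter, an activity-regulated one, switch on a lasting yellow label. The protocol describes 1 dose of the drug 1 h before contextual fear conditioning, and tissue of 10 to 12 mice was pooled before sorting with NeuN and GFP antibodies. The groups are Basal (3 libraries), Early, Late and Reactivated (4 each), named as in the sample titles. By the protocol, brains were taken either 1.5 to 2 h after the behavioural task or, with or without a new exposure to tone and context, on a later occasion 5 days after it. Which group belongs to which interval, how Basal was treated, which sorted fraction each library holds and the age of the mice are not stated in the labels, and the treatment field gives every library no recall and a collection day that follows the sample order. No batch or date is given. A contact map does not measure expression, so the labelled cell type could not be checked against marker genes.

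A promoter can be brought next to distant DNA by loops that cohesin extrudes and that often stop at CTCF, and by the clustering of active chromatin. In neurons such distant pieces include enhancers that drive genes of the synapse and of the response to activity. A promoter-capture score ties a promoter to a restriction fragment. The fragment is the unit of resolution, so a contact that moves to the next fragment counts as a different contact.

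Late libraries 3 and 4 listed 7165 and 7224 fragments and Reactivated libraries 3 and 4 listed 10035 and 10514, whereas the other 11 libraries listed between 32 and 6077. The sums of scores were 2543798 and 1722051 in the Late libraries and 7144270 and 8218430 in the Reactivated libraries, against 3097 to 1857343 elsewhere. The libraries of the rule thus held the longest lists of all 15, and Reactivated libraries 1 and 2, with 32 and 335 fragments, had the shortest. How far list length sets what counts as absent in a library was not tested. The labels do not say whether Late 3 and 4, or Reactivated 3 and 4, came from separate pools of mice.

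The sequence of the shared fragments is not printed, since their positions are on build mm9 and no genome of that build was used here. The other end of each contact is a promoter, and 528 of the 722 promoters had a sequence in the RefSeq table, which is on build GRCm38.p6. The 6 promoters below are shown because the values that follow turn on them. Homer1 and Cacna2d1 had several shared fragments, Reln, Ptprk and Btbd10 are among the promoters whose fragments scored high in each of the 4 libraries, and Gria2 is a glutamate receptor gene with a shared fragment. Each is the 250 bases before the gene's start (for Homer1 the more upstream of its 2 listed starts), 5′ to 3′ on the gene's strand. Capitals mark matches on either strand to the short cyclic AMP response motif (TGACG), which the full element TGACGTCA contains, to the GC box (GGGCGG), to the AP-1 site (TGANTCA) or to the HindIII site (AAGCTT). Which fragment was baited for each gene is not in the table.
Homer1, chr13:93303507-93303756, plus strand: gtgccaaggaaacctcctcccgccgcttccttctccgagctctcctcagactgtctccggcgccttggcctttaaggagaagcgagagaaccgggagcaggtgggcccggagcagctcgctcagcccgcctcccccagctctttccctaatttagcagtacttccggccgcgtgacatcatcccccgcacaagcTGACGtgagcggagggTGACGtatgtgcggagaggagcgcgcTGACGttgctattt
Reln, chr5:22344706-22344955, minus strand: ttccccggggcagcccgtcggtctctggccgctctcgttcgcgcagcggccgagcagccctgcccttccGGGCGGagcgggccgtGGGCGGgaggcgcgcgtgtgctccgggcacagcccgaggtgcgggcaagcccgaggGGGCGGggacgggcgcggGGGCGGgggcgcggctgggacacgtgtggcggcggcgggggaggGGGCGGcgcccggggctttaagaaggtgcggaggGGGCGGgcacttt
Ptprk, chr10:28074570-28074819, plus strand: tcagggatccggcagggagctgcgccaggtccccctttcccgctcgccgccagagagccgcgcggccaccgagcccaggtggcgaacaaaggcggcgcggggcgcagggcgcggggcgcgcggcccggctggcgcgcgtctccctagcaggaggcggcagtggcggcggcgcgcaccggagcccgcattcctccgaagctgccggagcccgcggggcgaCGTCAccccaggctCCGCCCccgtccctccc
Btbd10, chr7:113369340-113369589, minus strand: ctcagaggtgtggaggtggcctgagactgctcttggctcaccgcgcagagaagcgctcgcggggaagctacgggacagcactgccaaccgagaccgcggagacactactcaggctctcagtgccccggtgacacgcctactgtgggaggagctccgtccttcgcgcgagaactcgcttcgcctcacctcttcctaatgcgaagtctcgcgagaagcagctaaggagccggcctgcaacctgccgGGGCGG
Gria2, chr3:80802836-80803085, minus strand: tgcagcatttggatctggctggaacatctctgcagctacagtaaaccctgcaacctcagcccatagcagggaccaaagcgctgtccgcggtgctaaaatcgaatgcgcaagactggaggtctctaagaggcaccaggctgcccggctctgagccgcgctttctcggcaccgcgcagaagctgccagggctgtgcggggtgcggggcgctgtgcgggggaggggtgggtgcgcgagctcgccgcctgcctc
Cacna2d1, chr5:15934441-15934690, plus strand: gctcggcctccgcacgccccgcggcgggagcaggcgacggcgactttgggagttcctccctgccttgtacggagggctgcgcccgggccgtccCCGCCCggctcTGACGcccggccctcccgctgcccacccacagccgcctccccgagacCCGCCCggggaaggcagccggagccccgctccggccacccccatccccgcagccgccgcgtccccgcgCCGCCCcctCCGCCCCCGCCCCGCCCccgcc

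The Homer1 window held 3 short cyclic AMP response motifs and no GC box, those of Reln and Cacna2d1 held 6 GC boxes each, and that of Gria2 held no match to any of the motifs. Over the 686 windows of promoters with a shared fragment, 26.4% held the short cyclic AMP response motif, 2.62% the full element, 58.6% a GC box, 3.64% an AP-1 site and 5.25% a HindIII site. The 3672 windows of the other promoters in the table had 23.9%, 2.40%, 54.4%, 4.36% and 5.20%. All 32851 windows of the RefSeq table had 17.8%, 1.55%, 32.7%, 6.75% and 6.22%. For each of these motifs the promoters of shared fragments lay nearer to the rest of the captured promoters than to RefSeq promoters at large. A match to such letters is not a site of binding. Their median GC content was 61.6%, against 59.2% in the other captured promoters and 52.4% in all.

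Sharing between Late 3-4 and Reactivated 3-4 was of the size found between other libraries. Within groups, the libraries were gathered into 9 library sets taken from earlier work on these data. They were Basal 1-2, Basal 3, Early 1, Early 2, Early 3-4, Late 1-2, Late 3-4, Reactivated 1-2 and Reactivated 3-4. These make 30 pairs of sets from different groups. The libraries of Late 3-4 and of Reactivated 3-4 had 90.8% and 95.7% of the shorter list in common, those of Late 1-2 only 48.3%, and the 32 fragments of Reactivated 1 were all among the 335 of Reactivated 2. Late 3-4 and Reactivated 3-4 had 1675 fragments in common, 21.3% of the smaller list, and the 637 shared by them alone were 38.0% of those. The 637 were 8.08% of the fragments of Late 3-4 and 5.82% of those of Reactivated 3-4. By count they came second to the 744 fragments that Basal 3 and Late 3-4 shared alone, which were 45.2% of their 1646 common fragments. Reactivated 3-4 shared 534 fragments alone with Early 3-4, 500 with Basal 3 and 486 with Basal 1-2, which were 38.4%, 37.8% and 41.3% of the common fragments of each pair. Late 1-2 and Reactivated 3-4, the other Late set with the same partner, shared 206 alone, 44.8% of 460. Over the 30 pairs the median of this share was 31.5%. The pairs reuse the same libraries, so they are set side by side without a test.

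**Figure D1:**
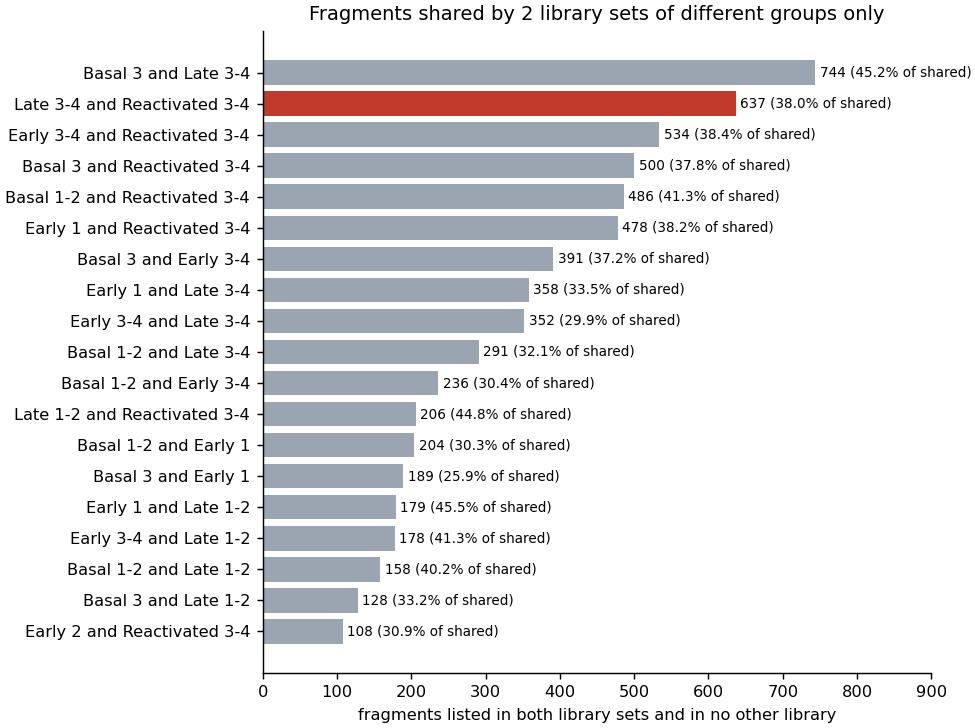
Fragments listed in both library sets of a pair and in no other library (horizontal axis, number of fragments), for the 19 pairs of sets from different groups with the most; the bracket gives them as a share of all fragments common to the pair. Late 3-4 and Reactivated 3-4 (red) had 637, fewer than the 744 of Basal 3 and Late 3-4.

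Most of the shared fragments were scored in all 4 libraries. This held for 414 of the 637 (65.0%), while 209 had a score in 3 libraries and 14 in 2. Of the 1038 fragments that Late 3-4 and Reactivated 3-4 had in common with a further library, 78.0% were scored in all 4. Where a score was missing, its partner library was usually low. A score was missing from Late 3 for 103 fragments, from Late 4 for 68, from Reactivated 3 for 35 and from Reactivated 4 for 31. Of those that lacked 1 library only, the 97 without Late 3 had a median of 3 in Late 4, and the 60 without Late 4 had a median of 4 in Late 3. The 28 that lacked only Reactivated 3 had a median of 7 in Reactivated 4, and the 24 that lacked only Reactivated 4 had a median of 15.5 in Reactivated 3. The lowest score in the table is 2, and the medians of the lone Late scores lie close to it.

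Scores ran from 2 to 2309 in Late 3 (median 93.5 over 534 fragments), from 2 to 1606 in Late 4 (median 52 over 569), from 2 to 7911 in Reactivated 3 (median 322.5 over 602) and from 2 to 8493 in Reactivated 4 (median 346 over 606). Fragments common to the same libraries and a further one were higher, with medians of 246, 161, 582 and 622 in the same order. Fragments listed in Late 3-4 alone had medians of 110 and 70, and those in Reactivated 3-4 alone 245 and 243.5. In Late the shared fragments thus sat slightly below the fragments found there alone, and in Reactivated above them. They held 4.57% and 4.65% of the summed score of Late 3 and 4, and 7.13% and 6.96% of that of Reactivated 3 and 4.

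The height of a contact in Late said little about its height in Reactivated. Across the 414 fragments scored in all 4 libraries, the log score of Late 3 followed that of Late 4 with a Pearson r of 0.956 (Spearman rho 0.970), and Reactivated 3 followed Reactivated 4 with 0.962 (0.978). Between Late and Reactivated libraries r was 0.160 to 0.190 and rho 0.202 to 0.230. In the 810 fragments also scored in a further library, r across the groups was 0.279 to 0.283 and within Late and within Reactivated 0.947 and 0.985. These correlations are over fragments of the same 4 libraries and describe those libraries only.

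**Figure D2:**
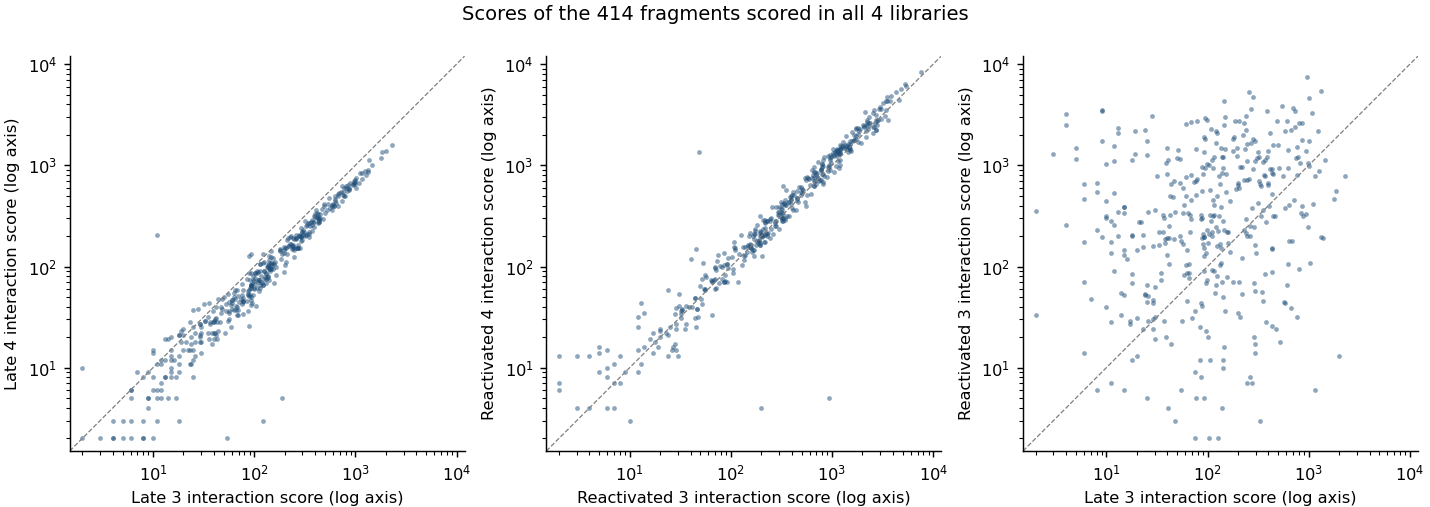
Interaction scores of the 414 fragments scored in all 4 libraries (log axes; each point is a fragment, the dashed line marks equal scores): Late 4 against Late 3, Reactivated 4 against Reactivated 3, and Reactivated 3 against Late 3. The points follow the line within each group (r of 0.956 and 0.962) and scatter over the whole field between the groups (r of 0.190 for the libraries plotted).

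The mean score, over the libraries with a score, was higher in Reactivated 3-4 than in Late 3-4 for 476 fragments, lower for 156 and equal for 5. The log2 ratio of Reactivated to Late had a median of 2.23 and a spread of 3.94 (SD over 637 fragments), whereas the log2 ratio of Late 3 to Late 4 had an SD of 0.618 and that of Reactivated 3 to 4 an SD of 0.613. Once each score was divided by the library's sum of scores, the median ratio was 0.40, with 354 fragments higher in Reactivated and 283 higher in Late. The majority and the median kept their direction, while 122 single fragments that were higher in Reactivated as deposited were higher in Late after this scaling. None could turn the other way, because the larger sums of Reactivated 3-4 lower every ratio. The scores below are as deposited, and so are the words higher and lower, unless the scaled value is given. Within a 2-fold range of each other lay 113 fragments, and 97 were over 100-fold apart. After scaling all 113 were higher in Late, which the difference in library sums alone makes certain. For 107 fragments the highest Late score was under 5, and 57 of these reached 1000 or more in Reactivated. For 22 the highest Reactivated score was under 5. Membership of these fragments rests on scores at the bottom of the scale in at least 1 group.

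The fragments with the highest lowest score were strong in all 4 libraries. The fragment at chr10:27800789-27805154 (mm9), listed with Ptprk, a receptor tyrosine phosphatase gene, had 1461 and 1018 in Late 3 and 4 and 1130 and 1451 in Reactivated 3 and 4. Its Late and Reactivated scores overlapped, and no other shared fragment had a score above 1000 in every library. The fragment at chr7:120479844-120480719 of Btbd10, which encodes a BTB domain protein, had 1233, 878, 2202 and 2446, in the same order of libraries as all values below. That at chr5:21848099-21849307 of Reln, which encodes the secreted glycoprotein reelin that guides neuronal layering, had 1330, 868, 5430 and 6089. In these last 2 fragments, both Reactivated scores exceeded both Late scores. After scaling by library sums, the log2 ratio of Reactivated to Late was -1.80 for the Ptprk fragment and -0.71 for that of Btbd10, so both were then higher in Late.

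A group of fragments had nearly equal scores in Late and Reactivated as deposited. Scaling by library sums, which lowers every ratio of Reactivated to Late, made them lower in Reactivated. The fragment at chr16:35540531-35546848, listed with Pdia5, a disulfide isomerase gene, and Sec22a, a vesicle trafficking gene, had 1154, 839, 793 and 1020. That at chr4:63215688-63225748 of Atp6v1g1, a subunit gene of the vacuolar proton pump, had 1263, 803, 887 and 764. That at chr1:40768324-40769460, listed with Il1rl1, the interleukin 33 receptor gene, and Slc9a2, a sodium and proton exchanger gene, had 985, 721, 1056 and 862. The ranges of the groups overlap in all 3. The fragment at chr10:40467658-40476916 of Cdc40, a splicing factor gene, had 997, 677, 974 and 1219, again with overlap. The scaled log2 ratios of Reactivated to Late of these 4 fragments ran from -2.15 for Atp6v1g1 to -1.46 for Cdc40.

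In other strong fragments the groups stood apart. The fragment at chr11:28635767-28638914, listed with Pnpt1, which encodes a mitochondrial RNA-processing enzyme, and Smek2, a phosphatase 4 subunit gene, had 2309, 1606, 784 and 924. It was the highest in both Late libraries and the only one of the 12 strongest with Late above Reactivated throughout. The fragment at chr2:104653040-104653350 of Qser1 had 971, 707, 7492 and 8285, and its summed score was the highest of all 637. Those listed with Lgr5, Rab21 and Thap2 (chr10:114823985-114826275, scores of 1075, 664, 3304 and 3049) and with Sfr1 (chr19:47802344-47804105, scores of 999, 654, 4631 and 4457) were likewise higher in Reactivated as deposited. Their scaled log2 ratios were 0.04 and 0.62, so the former was about equal after scaling. Camk4, which encodes a calcium-dependent kinase of the neuronal nucleus, and Wdr36 shared chr18:33334122-33342034, with scores of 948, 635, 1379 and 1930, which a scaled log2 ratio of -0.79 turned to higher in Late.

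**Figure D3:**
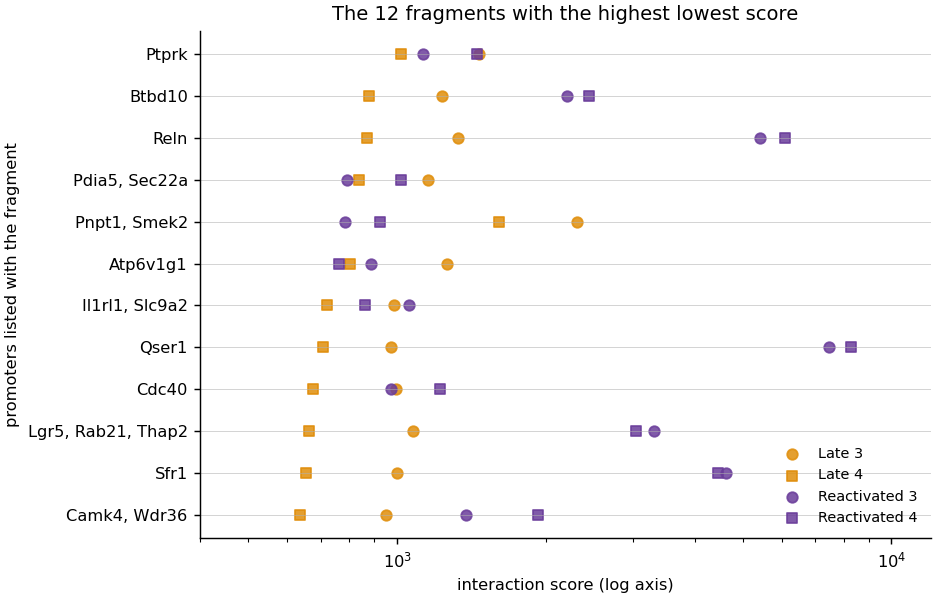
Interaction scores as deposited (log axis) of the 12 shared fragments with the highest lowest score, 1 per promoter, in Late 3 and 4 (orange circle and square) and Reactivated 3 and 4 (purple circle and square). Orange and purple overlap for Ptprk, Pdia5 and Sec22a, Atp6v1g1, Il1rl1 and Slc9a2, and Cdc40, and Pnpt1 and Smek2 have the higher scores in Late.

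The highest single scores were all in Reactivated, and several had next to nothing in Late. The fragment at chr2:171871300-171873908 of Cbln4, a synaptic organiser gene, had no score in Late 3, 10 in Late 4, and 7911 and 8493 in Reactivated. That at chr17:17541318-17557988 of Lix1 had 3 in Late 3, none in Late 4, and 6567 and 7021. A Thap2 fragment at chr10:114823724-114823982, next to the Lgr5, Rab21 and Thap2 fragment above, had no score in Late 3, 140 in Late 4, and 6872 and 7693. The fragment at chr15:3304009-3306310, listed with Sepp1, the selenoprotein P gene, and Sp1, a transcription factor gene, had 257, 192, 5258 and 6368.

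At the edge of the rule, the lowest summed scores belonged to chr1:17585630-17590142 of Jph1 and Pi15, with 2 in Late 3, 2 in Late 4 and 2 in Reactivated 4, and to chr11:3081517-3086930 of Eif4enif1, with 2 in Late 3 and 4 in Reactivated 3. Just outside lay 384 fragments that a single score in 1 further library kept out. The nearest were chr11:3074215-3075891 of Eif4enif1, with 7, 4, 5 and 29 and a score of 2 in Early 3, and chr11:109129792-109134693 of Rgs9, with 845, 630, 2969 and 2835 and likewise 2 in Early 3.

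Of the 722 promoters, 635 had 1 shared fragment, 74 had 2 and 13 had 3. A promoter with a shared fragment had a median of 10 listed fragments, against 6 for the other promoters, and a promoter with more listed fragments has more chances to hold one. Counted per fragment, the median number of fragments listed with the promoter was 13 for shared fragments and 12 for those of a single library set. It was 10 to 15 in the other pairs of sets. Where a fragment had several promoters, the largest number was taken. That was so for 26.8% of shared fragments and 2.16% of those of a single set, so these medians are not fully alike. The contacts of these promoters were not confined to Late and Reactivated. Of the 722, 678 (93.9%) had another fragment scored in a Basal or Early library, against 89.9% of the promoters without a shared fragment. For 8 promoters the shared fragment was the only one listed. These were Rac2, Ralgds, Svil, Tmed8, Gpatch4, Nhlrc1, Eif2ak2 and Atp6v1g2, named after their values were seen. Among them the fragment of Tmed8 had 158, 105, 221 and 213, and that of Rac2, a small GTPase gene, also listed with Sstr3, had 140, 94, none and 155.

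Homer1 encodes a postsynaptic scaffold that links metabotropic glutamate receptors to calcium stores, and a short form of it is made in response to activity. Of its 26 listed fragments 3 were shared ones. That at chr13:93602838-93603481, also listed with Mtx3, had no score in Late 3, 17 in Late 4, and 835 and 819 in Reactivated. That at chr13:93768450-93769939 had 641, 422, 180 and 259, and that at chr13:94231201-94233065 had 149, 104, 1456 and 1546. The first and the last were higher in Reactivated and the middle one in Late. The fragment that adjoins the middle one, chr13:93761095-93768447, had 265 in Early 1 and 42 in Late 1, and chr13:93770425-93771810 on its other side had 94 in Early 1 and 30 in Early 3. At fragment resolution the middle contact is shared by Late 3-4 and Reactivated 3-4 only, while fragments beside it were scored in Early, and the adjoining one also in Late 1.

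Cox6c, a subunit gene of cytochrome c oxidase, had 3 shared fragments of 21. At chr15:35623032-35629531 it had 142, 96, 1198 and 1583, at chr15:35869587-35870686 it had 772, 495, 1510 and 1484, and at chr15:35957156-35961397, also listed with Rgs22, it had 19, 18, 2191 and 1913. All 3 were higher in Reactivated as deposited, and the second was higher in Late after scaling (log2 ratio -0.59). Bcap29, which encodes a protein of the endoplasmic reticulum, had 3 of 32, with the strongest at chr12:32320594-32321172 (674, 496, 2227 and 2703). B3galnt1, a glycosyltransferase gene, had 3 of 22, of which 2 were also listed with the phosphatase gene Ppm1l, and all 3 had Late scores of 45 to 140 beside Reactivated scores of 686 to 1325.

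The inositol kinase gene Itpk1 had 3 of 14 in mixed directions. At chr12:103776840-103778389 it had 372, 259, 85 and 70, whereas at chr12:103968359-103976880 it had no score in Late 3, 2 in Late 4, and 1358 and 1273. Maneal had 3 of 9. That at chr4:124533349-124534825, listed also with Cdca8 and the ephrin receptor gene Epha10, was higher in Late (1021, 753, 109 and 151). That at chr4:151398769-151411494, listed also with Phf13, Thap3 and Zbtb48, was higher in Reactivated (89, 86, 972 and 1045). Tnfrsf11a, the RANK receptor gene, had 3 of 33 with Late scores of 22 to 320 and Reactivated scores of 74 to 1373. After scaling, the log2 ratios of Reactivated to Late of these 3 were -0.60, 0.40 and -0.03, in order of position.

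Glutamate receptor promoters had shared fragments in 6 of 22 genes in the table, and 8 of their 226 listings (3.54%) were shared ones. Over all promoters and all listings the shares were 16.3% and 2.26%. Grin2a, an NMDA receptor subunit gene, had 2, with 240, 190, 216 and 173 at chr16:9911623-9913163 (listed also with Emp2) and 124, 91, 81 and 100 at chr16:10061750-10078697. In both the groups overlap and the scores are close as deposited, and both were higher in Late after scaling (log2 ratio -2.11 for the second). Gria2, the AMPA receptor subunit that makes the channel impermeable to calcium, had 89, 51, 561 and 511 at chr3:80625718-80628356. Grm8, a metabotropic receptor gene, went the other way with 680, 523, 179 and 164 at chr6:28090550-28092191. Grik4, a kainate receptor subunit gene, had 121, 66, 244 and 190 at chr9:42463006-42464101 and 55, 29, 180 and 178 at chr9:42643252-42644756, and the former was higher in Late after scaling (log2 ratio -0.58).

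Of the ion channel genes, 8 of 25 had a shared fragment, against 16.3% of all promoters. Of their listings, 10 of 281 (3.56%) were shared, against 2.26% of all. Cacna2d1, which encodes an auxiliary calcium channel subunit that also binds gabapentin, had 203, 151, 2713 and 2811 at chr5:15356000-15357614 and 448, 334, 814 and 656 at chr5:15535445-15535734, of which the second was higher in Late after scaling (log2 ratio -0.93). Ryr3, a calcium release channel gene of the endoplasmic reticulum, had 28, 38, 3052 and 2882 at chr2:112855008-112860555. Kcnq3, a subunit gene of the M-type potassium channel, had 109, 70, 2298 and 2601 at chr15:65814187-65814508. The Cacna1c fragment at chr6:119226256-119228542, of the L-type calcium channel, had no score in Late 3 and 2 in Late 4 beside 4679 and 4304 in Reactivated, so its place among the shared contacts rests on a Late score of 2.

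Among postsynaptic scaffold and plasticity kinase genes, 6 of 19 had a shared fragment (9 of 232 listings, 3.88%), Homer1 and Camk4 among them. For this list and the next, the shares over the whole table were 16.3% of promoters and 2.26% of listings. Dlgap2, a scaffold gene, had 135, 77, 389 and 456 at chr8:14100194-14101957. Homer3 shared the 219 bp fragment chr8:72736892-72737110 with Ncan, Slc25a42 and Sugp2, with 3, 2, 1286 and 1559. Presynaptic vesicle genes had 4 of 20 (5 of 129 listings, 3.88%). Here the Vamp2, Stx1a and Unc13b fragments were higher in Late, the last with no score in Late 4. That of Snap25 was higher in Reactivated. Vamp2, a vesicle SNARE gene, had 218, 160, 120 and 133 at chr11:68913737-68921744, listed also with Alox8, and 98, 66, 3 and none at chr11:68883328-68886356. Stx1a, its partner on the plasma membrane, had 274, 162, 7 and 11 at chr5:135511713-135515191. Snap25, the third SNARE, had 6 in Late 3 and 31 in Reactivated 4 alone, at chr2:136513033-136515802. Unc13b, a vesicle priming gene, had 372, none, 49 and 56 at chr4:43046253-43051908.

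Immediate early genes and others that respond to activity had shared fragments at 4 of 21 promoters (6 of 226 listings, 2.65%), which is near the 2.26% of all listings. Bdnf, the neurotrophin gene, had 87, 57, 44 and 31 at chr2:109386034-109387646, which was also listed with Lin7c. Sik1, a salt-inducible kinase gene, had 158, none, 944 and 1201 at chr17:31967103-31974513, also listed with Hsf2bp, and Dusp5, a MAP kinase phosphatase gene, had 10, none, 21 and 8 at chr19:53605772-53617631. Hormone and neuromodulator receptors had 8 of 24 promoters (33.3%, against 16.3% of all) and 8 of 277 listings (2.89%, against 2.26% of all). Among them Htr4, a serotonin receptor gene, had 124, 75, 2110 and 3336 at chr18:62498860-62499704, listed also with Csnk1a1. Rxrg, a retinoid receptor gene, had no score in Late 3, 2 in Late 4, and 1957 and 1810 at chr1:169368604-169373420.

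The mitochondrial respiration genes had the highest share of listings, 11 of 211 (5.21%, against 2.26% of all), at 7 of 22 promoters (31.8%, against 16.3% of all). Cox6c gave 3 of the 11 listings, and Cox7b and Atp5h 2 each. Atp5d and Ndufs7 were listed with the same fragment, chr10:79726140-79735133, which was counted for both. By promoters, the hormone and neuromodulator receptors (33.3%) and the ion channels (32.0%) stood slightly higher. Besides Cox6c these included Cox7b, another cytochrome c oxidase subunit gene, with 9, 4, 3530 and 4750 at chrX:103196899-103201176, and the ATP synthase genes Atp5h, with 37, 28, 299 and 342 at chr11:115246561-115247706, and Atp5g1, with 160, 112, 172 and 211 at chr11:95922826-95930169, which was higher in Late after scaling (log2 ratio -1.36). Chromatin modifier genes had 2 of 16 (3 of 140 listings, 2.14%), Hdac7 with 25, 25, 1739 and 2313 at chr15:97632866-97642351 (listed also with Tmem106c) and Smarcb1. Of the cohesin and looping factors, 1 of 4 had a shared fragment (1 of 53 listings, 1.89%). It was that of Esco1, a cohesin acetyltransferase gene, at no score, 4, 92 and 96. The lowest shares of listings were those of cell adhesion and axon guidance genes, with 3 of 38 promoters (3 of 364 listings, 0.824%), and of GABA and inhibitory synapse genes, with 2 of 17 (2 of 180, 1.11%). The former were Sema6d, Nrp2 and Robo2, guidance genes, of which Robo2 had 68, 59, 293 and 349 at chr16:74408833-74409319. Reln, described above, was among the latter. Of the glial and endothelial markers 1 of 12, Mbp, and of the neuronal markers 1 of 5, Snap25, had a shared fragment. The lists were set down with earlier results of these data known, their counts are small, and no list was tested against another.

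**Figure D4:**
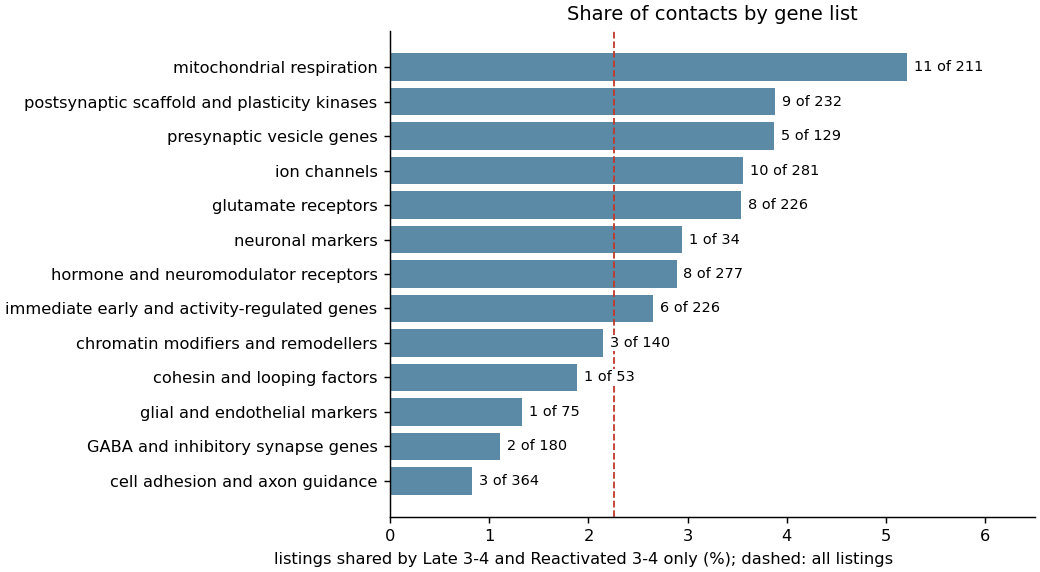
Share of the listings of each gene list that are fragments shared by Late 3-4 and Reactivated 3-4 only (percent; the counts stand at the bars, the dashed line marks the 2.26% of all listings). Mitochondrial respiration genes stand at 5.21% and cell adhesion and axon guidance genes at 0.824%.

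Shared fragments were often listed with several promoters. This held for 171 of 637 (26.8%), against 7.76% of all fragments, 2.33% of those in Late 3-4 alone and 2.33% of those in Reactivated 3-4 alone. Of fragments common to Late 3-4, Reactivated 3-4 and a further library, 34.4% were listed with several promoters, and of fragments listed in 1 or 2 library sets at large 2.16% and 17.2%. Over 18 other pairs of library sets with at least 100 fragments of their own, the share ran from 5.91% to 57.8% with a median of 17.5%, the highest being that of Late 1-2 and Reactivated 3-4. All listings of a shared fragment carried equal scores. For the 171 fragments it can therefore not be told whether the Late score and the Reactivated score belong to the same promoter, and 466 fragments, listed with 1 promoter, are free of this. Of 166 such fragments whose promoters could all be placed in the reference, the promoters of 36 were immediate neighbours among protein-coding genes.

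The shared fragments lay on every autosome and on X. Chromosome 12 had the highest share, with 39 of 1434 listed fragments (2.72%), and chromosome 7 the lowest, with 19 of 1528 (1.24%). Their median length was 2762 bp (155 to 29960 bp), against 2939 bp over all listed fragments, and over the other 18 pairs of library sets the medians ran from 2614 to 3404.5 bp. Of 819 listings whose gene could be placed on a chromosome, 816 had the fragment on that chromosome. The exceptions, named after their values were seen, were listings of Rps27a and Rpl23a, ribosomal protein genes, whose family has many processed copies in the genome, and of Cldn25, an older name that 2 genes of the reference carry, so that its placement is uncertain. The gene parts that the fragments overlap on mm9 were not analysed here.

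Many of them lay beside other contacts of the same promoter. The nearest other listed fragment of the same promoter was a median of 9.72 kb away (lower and upper quartile 0.003 and 45.0 kb, 814 listings), against 37.6 kb over all listings, 26.9 kb for fragments of Late 3-4 alone and 24.6 kb for those of Reactivated 3-4 alone. It was 5.05 kb for fragments common to Late 3-4, Reactivated 3-4 and a further library. A gap of 3 bp is that between neighbouring fragments in the table. Such a neighbour, listed with any promoter and not only the same one, was present for 268 of the 637 (42.1%). This held for 27.7% of all fragments and for 24.2% to 42.5% in the 18 other pairs of sets. For 175 (27.5%) a neighbour, again of any promoter, was scored in a Basal or Early library, against 17.6% of all fragments. Among those common to Late 3-4, Reactivated 3-4 and a further library it was 35.9%. Of the shared fragments, 20 adjoined another shared fragment. The nearest fragment of the same promoter scored in Basal or Early was a median of 21.1 kb away, against 69.5 kb over all listings, and 37.9% of listings had one within 10 kb, against 24.2%. For fragments common to Late 3-4, Reactivated 3-4 and a further library these values were 10.5 kb and 49.7%. Few listings, 3.32%, lay over 1000 kb from any other fragment of their promoter, against 17.8% of all listings. The share was 7.85% for Late 3-4 alone, 9.31% for Reactivated 3-4 alone and 3.66% with a further library. These are gaps between fragments, not distances from fragment to promoter.

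The promoters were also compared on their other fragments. The rule read those scores too, and leaving out the shared fragments takes away scores that Late and Reactivated had and Basal and Early lacked. The counts that follow are therefore a description, and nothing about the shared fragments is read from them. Scores were put on the asinh scale, which is near logarithmic for high values, and averaged per promoter over these fragments for 4421 promoters, 714 of them with a shared fragment. For Late and Reactivated against Basal and Early, limma called 0 of 4421 (0%) at an adjusted p under 0.05. An unadjusted p under 0.05 was found for 300 of all promoters (6.79%) and for 32 of the 714 (4.48%). There were 36 calls without Basal library 3 (3 among the 714), 22 after quantile normalization (5 among the 714), 1 without the variance trend, and 1358 without Reactivated libraries 1 and 2 (219 among the 714). The libraries of a pair may not be independent, in which case these p-values are too small.

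For Reactivated against Late, 5 of 4421 promoters (0.113%) passed, and 2 of them had a shared fragment. Otof, which encodes the calcium sensor otoferlin, was higher in Reactivated, by 5.22 on the asinh scale (SE 0.84, adjusted p by limma 0.00644). It rests on 1 fragment, chr5:30939784-30945354, with 73, 199, 59 and 87 in the 4 Reactivated libraries, 4 in Basal 3 and no score elsewhere. Its shared fragment, chr5:30771986-30778038, had no score in Late 3, 2 in Late 4, and 383 and 508. Pi15, a peptidase inhibitor gene, was lower in Reactivated with a difference of -2.41 (SE 0.40, adjusted p by limma 0.00644). Its 3 other fragments had 12 to 22 in Late 1 and 2 or 1124 and 847 in Late 3 and 4 and no score elsewhere. When the mean of each library set stood for its libraries, 0 promoters passed. The count was 1860 without Reactivated libraries 1 and 2 together (335 among the 714), 18 after quantile normalization, 8 for promoters above 0 in at least 4 libraries, 155 without Reactivated 1 and 146 without Reactivated 2, of which 9 each were among the 714, 13 and 14 without Late 1 or Late 2, and 3 without Early 4, Reactivated 3 or Reactivated 4.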

How the data were processed

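Promoter-capture Hi-C was made from pooled, sorted hippocampal nuclei, fixed with 2% paraformaldehyde, cut with HindIII and amplified in 17 PCR cycles, per the labels' protocols. The deposited file gives the authors' interaction score per promoter and fragment in 15 libraries, per the file headers, on build mm9, per the submitters' processing notes. Names of the aligner and interaction caller, and any filter or normalization, were not given in the sources used here. Every score was a whole number and at least 2, as read numbers per interaction would be, so a score can carry depth, which is not known. A dot was read as no score. Columns were matched to samples by the titles.

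Fragments were taken as distinct by chromosome, start and end, with positions as deposited. Promoters were compared with limma 3.58.1 (R 4.3.3, statmod 1.5.0, robust, with a variance trend) on mean asinh(score) over the fragments outside the rule. No score counted as 0. There was 1 fit of all 15 libraries, with Benjamini-Hochberg over 4421 promoters. In tests on simulated data the fit found nearly all large shifts and missed most or all smaller ones. Few or no calls therefore do not show that smaller shifts were absent. Same-numbered libraries did not deviate together (r from -0.06 to 0.05 over 21 pairs). Other values were made with Python 3.11.15 and pandas 2.3.3. The members, library sets, lists and comparisons were chosen with earlier results of these data known. The named fragments were the 12 with the highest lowest score of the 4 libraries, the 6 highest single scores, the 8 promoters with most shared fragments, up to 4 genes a list and the edges of the rule, without predicted genes, clone names, microRNAs and olfactory receptors. Some fragments that this rule names are not reported here. Alternatives were other minimum scores, scalings, filters, library sets, a replicate block and each library left out.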

Additional observations from a re-analysis of the deposited data

How the results depend on the processing

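The number of shared fragments was 524 with a minimum score of 5, 466 for fragments listed with 1 promoter and 414 with a score required in all 4 libraries. Leaving out each library in turn gave 534 to 799, the highest without Basal library 3. The median log2 ratio of Reactivated to Late over the shared fragments was 0.40 after division by library sums, 1.83 with a score of 5 or more in all 4 libraries, and 1.55 to 2.44 with a library left out, the lowest without Late library 4. On the fragments outside the rule, the promoters called for Late and Reactivated against Basal and Early numbered 22 after quantile normalization, 1 without the variance trend and 1358 without Reactivated libraries 1 and 2, with 0 to 36 when leaving out each library. For Reactivated against Late they numbered 18 after quantile normalization, 0 with each library set as its mean, 8 for promoters above 0 in at least 4 libraries and 1860 without Reactivated libraries 1 and 2, with 3 to 155 when leaving out each library. Without Reactivated libraries 1 and 2, that group holds only libraries 3 and 4, which list largely the same fragments. Of the 714 promoters with a shared fragment 219 were then called, beside 1358 of all 4421, and for Reactivated against Late 335, beside 1860 of 4421. The causes of these changes were not tested. With the replicate number as a block the counts were 0 and 5, as without it, and the samples share only a number. The depth of the libraries is unknown, so no limit of detection could be given for a missing score.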
